A study of Mus musculus with 37 samples.

Results

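The 10 genes described here encode TGF-beta family ligands (Tgfb1, Tgfb2, Tgfb3 and Inhba), the stromal receptor Pdgfrb, and products of activated fibroblasts (Postn, Tnc, Thbs2, Lox and Fap). They were chosen by name as activated fibroblast and TGF-beta genes, with no measured value in the rule, and all 10 were found among the 24421 gene symbols of the whole transcriptome sequencing (WTS) table. Their choice, and that of the gene lists used below, was made with earlier results of these data known. All 10 passed the filter on low counts in every fit reported. WTS was made from the ureter and bladder of wild-type female BALB/c mice that received the carcinogen N-butyl-N-(4-hydroxybutyl) nitrosamine (BBN) for 18 weeks or no BBN, in a model of upper tract urothelial carcinoma. UT is the ureter side bearing cancer (11 libraries of 10 mice), UN the opposite, cancer-free side in the same treated animals (7 libraries of 7 mice), and U the ureter of mice without BBN (6 libraries, from both sides of 3 mice). The bladders were taken from 10 treated mice (BB) and 3 untreated mice (B). All groups share strain, sex and genotype, and the libraries are of bulk tissue, in which markers of epithelium, stroma and fat were all measured. Since U holds both sides of 3 mice, its 6 libraries are not 6 separate animals.

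Library totals ran from 3557697 to 18793560 estimated counts over the 37 libraries. In 5 libraries (UN 6, U 1 and the bladders BB 1, BB 3 and BB 4) the RNA integrity number given by the study was under 5. UN 6 and those 3 bladders were also the shallowest of their groups. Results of UT against UN and of BB against B are in part also given without libraries of low integrity. For UN against U, the fit without them called 1665 genes in place of 2106, and list counts without them are not given here. The summed urothelium markers lay between 29.6 CPM (counts scaled to a common library total) in UN 2 and 10280 CPM in the ureter libraries. Urothelial transcripts were therefore nearly absent from UN 2, although its label says ureter. Kidney tubule markers summed to 2226 CPM in UT 4 and to between 2.47 and 11.8 CPM in the other 10 UT libraries. Adipocyte markers summed to between 47005 and 73903 CPM in U and to between 453 and 2439 CPM in B. In bulk tissue, fewer cells of a type and less RNA per cell cannot be told apart. UT 9 entered no main fit, because the study leaves it out of its drawings without a reason, and neither did BB 6, whose library name carries a T. Both are included in the levels.

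TGF-beta ligands are secreted in a latent form and, once released, act through paired serine/threonine kinase receptors on SMAD proteins. Fibroblasts that respond to them lay down and crosslink matrix, and activin A, the dimer of the Inhba product, signals through related receptors to the same SMAD2 and SMAD3. In carcinomas of the urinary tract and elsewhere, fibroblasts in this state surround the epithelium and are recognized by proteins such as periostin, tenascin C and fibroblast activation protein.

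Of the 4 members called higher in UT than in U, Lox has no window shown here. Promoter windows from RefSeq (GRCm38.p6, 250 bases before to 50 after the annotated start) are shown for Inhba, Tnc and Tgfb1. They are printed 5′ to 3′ on the strand of the gene, with capitals for matches on either strand to the motif of the TATA box, to the core bound by SP1 or to the core bound by SMAD proteins. In letters the TATA box is TATAAA. The SP1 core is GGGCGG, and the SMAD core is CAGAC. The windows lie at chr13:16011601-16011900 (plus strand) for Inhba, chr4:64046966-64047265 (minus strand) for Tnc and chr7:25686752-25687051 (plus strand) for Tgfb1, each around the 5′ end of the protein-coding gene.
Inhba: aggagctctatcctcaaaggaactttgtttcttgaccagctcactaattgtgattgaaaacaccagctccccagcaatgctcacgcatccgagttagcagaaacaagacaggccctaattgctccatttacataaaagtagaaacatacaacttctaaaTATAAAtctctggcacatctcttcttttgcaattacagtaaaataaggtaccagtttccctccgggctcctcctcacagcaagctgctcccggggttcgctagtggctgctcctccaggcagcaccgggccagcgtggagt
Tnc: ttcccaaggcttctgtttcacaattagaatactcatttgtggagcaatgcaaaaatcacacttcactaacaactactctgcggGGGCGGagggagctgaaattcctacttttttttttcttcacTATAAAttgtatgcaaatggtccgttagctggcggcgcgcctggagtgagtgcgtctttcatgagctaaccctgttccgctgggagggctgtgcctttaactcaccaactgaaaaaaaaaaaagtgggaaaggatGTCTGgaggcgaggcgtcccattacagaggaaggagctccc
Tgfb1: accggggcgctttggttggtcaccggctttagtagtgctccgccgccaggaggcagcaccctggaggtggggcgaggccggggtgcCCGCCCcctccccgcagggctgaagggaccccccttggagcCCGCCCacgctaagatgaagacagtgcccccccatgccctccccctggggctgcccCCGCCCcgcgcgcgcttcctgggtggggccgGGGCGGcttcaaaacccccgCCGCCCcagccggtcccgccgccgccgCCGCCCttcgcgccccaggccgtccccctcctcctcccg
The Inhba window held 1 TATAAA and neither of the other motifs. The Tnc window held 1 match to each of the 3. The Tgfb1 window held no TATAAA and 6 matches to GGGCGG. Of 32851 promoter windows of this length, 13.6% held TATAAA, 35.7% GGGCGG and 49.6% CAGAC, and no matches overlapped in these 3 windows. TGANTCA and TGACGTCA, the sites of AP-1 and CREB, and GGAATG, the core bound by TEAD proteins, were in none of them, against 7.81%, 1.79% and 14.7% of all windows. Tgfb2, Postn and Thbs2 each held 1 TATAAA. Tgfb2 and Thbs2 each held 2 CAGAC. These are matches of letters, and no binding was measured.

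In untreated ureter, the matrix genes dominated. Per length (TPM, counts per length scaled to a common total), the median level in U was 53.3 for Postn, which encodes the matricellular protein periostin, 23.0 for Thbs2, the matricellular thrombospondin 2, and 19.4 for Lox, which encodes the enzyme that crosslinks collagen and elastin. Pdgfrb, the receptor for PDGF-B on fibroblasts and pericytes, stood at 18.2 TPM, Tgfb3 at 14.4 and Tnc, the matricellular glycoprotein tenascin C, at 11.5. Tgfb2 (2.83 TPM), the fibroblast surface protease gene Fap (2.46 TPM) and Tgfb1 (1.06 TPM) were lower, and Inhba was lowest at 0.174 TPM. Neighbours in this order overlapped between libraries down to Fap, whereas the ranges of Fap, Tgfb1 and Inhba were separate. Inhba rested on 2 to 10 counts per U library, 36 in all, so its level in U carries a large counting error, and U 5 with 2 counts was under the 3 counts taken as a floor.

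The order differed in the other groups. In UT the median TPM was 59.0 for Lox, 46.0 for Postn, 37.3 for Thbs2 and 27.8 for Tnc, and Inhba at 3.22 stood above Tgfb1 (2.27) and Fap (1.89). Each gene overlapped its neighbour in this order. In untreated bladder Thbs2 (77.1 TPM), Tgfb3 (40.2) and Tnc (36.5) came before Postn (29.4), Lox was at 6.12 and Inhba was again lowest at 0.320. Inhba thus held the last place in U, UN and B, the eighth in UT and the ninth in BB.

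**Figure D1:**
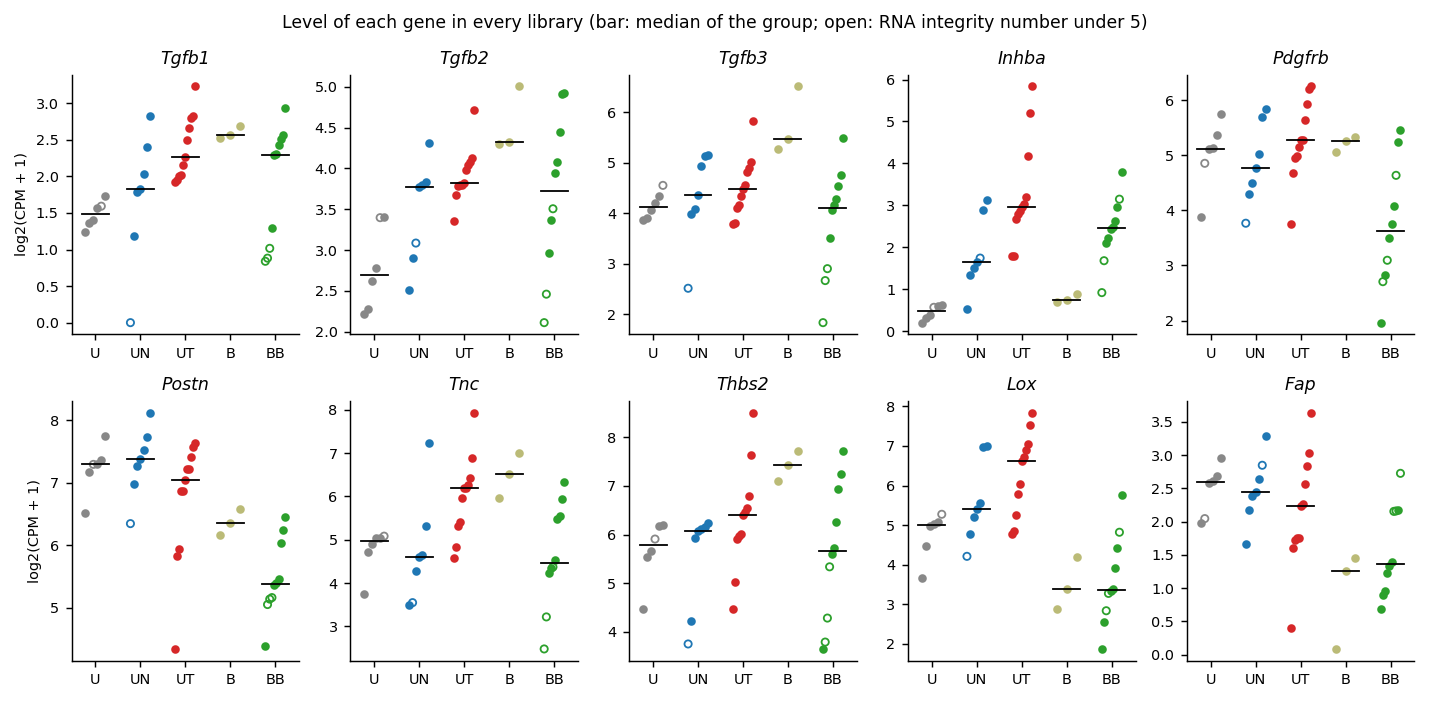
Level of each of the 10 genes as log2(CPM + 1) on the vertical axis, 1 point per library, by group (U, UN, UT, B, BB), with open points for libraries of RNA integrity number under 5 and a bar at the group median. Inhba shows the clearest steps, with every UT library above every U library and every BB library above every B library, whereas Postn and Pdgfrb overlap in the ureter groups.

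The comparison of UN with U asks what BBN did to ureter in which no cancer was found. Inhba was the member that rose. In U it was at 0.487, 0.255, 0.532, 0.310, 0.154 and 0.521 CPM, and in UN at a lowest 0.449, a median 2.17 and a highest 7.80 CPM. UN 9 was the only UN library inside the U range, and UN 3 and UN 7 were the highest. The log2 fold change was 2.93 ± 0.75 (SE), or 7.63-fold (edgeR quasi-likelihood test, adjusted p = 0.0138), and 1 of 10 members was called higher and 0 lower at an adjusted p under 0.1 and at least 2-fold, against 11.8% and 1.66% of the 15621 genes tested. With the counts of both ureters summed per untreated mouse, the same fold change (2.92) was not called (adjusted p = 0.179).

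None of the other ligands was called. Tgfb2 was at 3.65 to 9.58 CPM in U (median 5.50) and 4.72 to 18.8 CPM in UN (median 12.7), with a log2 fold change of 0.71 ± 0.27 and an adjusted p of 0.0820, so that it passed the threshold on p without reaching 2-fold. Tgfb1 (0.45 ± 0.42) and Tgfb3 (0.21 ± 0.33) were not called. In UN 6 Tgfb1 had 0 counts, which at that depth allows up to 0.642 CPM.

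Among the receptor and matrix genes, Lox had the largest difference. It ran from 11.7 to 37.7 CPM in U and from 17.5 to 126 CPM in UN, with UN 2 (126 CPM) and UN 3 (124 CPM) far above the other UN libraries, and its log2 fold change of 1.12 ± 0.50 was not called (adjusted p = 0.140). Without UN 9 it was called (1.25, adjusted p = 0.0889), and without UN 2 the difference was 0.70. Postn (0.02 ± 0.34), Tnc (0.28 ± 0.51), Thbs2 (-0.17 ± 0.49), Pdgfrb (-0.25 ± 0.33) and Fap (0.12 ± 0.53) were not called either, and no member separated UN from U without overlap, where 2.09% of genes were higher and 1.30% lower in every UN library.

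Of 21 other genes of activated fibroblasts tested between UN and U, 10 rose and 2 fell, against 11.8% and 1.66% of all genes, with a median log2 fold change of 0.85 against 0.08 over all genes. Pdpn, which encodes the stromal glycoprotein podoplanin, rose by 1.53 ± 0.29 (adjusted p = 0.00231), and S100a4, the fibroblast-specific protein 1 gene that macrophages express too, rose by 3.28 ± 0.74 (adjusted p = 0.00689). Of 17 TGF-beta response genes 5 rose, among them Timp1 (5.68 ± 0.86), an inhibitor of metalloproteinases, Ctgf (3.37 ± 0.52), a matricellular protein, and Cdkn1a (2.98 ± 0.34), the CDK inhibitor p21 that p53 induces as well. Of 13 TGF-beta and activin inhibitors 5 rose, among them the activin-binding follistatins Fst (1.29 ± 0.33, adjusted p = 0.0139) and Fstl3 (1.29 ± 0.33, adjusted p = 0.0136). None of 9 receptors and none of 4 SMAD transducers was called. Macrophage markers moved with these genes, 6 of 10 called higher, with sums of 372 to 545 CPM in U and 253 to 2881 CPM in UN, as did neutrophil markers, 6 of 7 called higher, with sums of 25.1 to 41.6 CPM in U and 73.9 to 550 CPM in UN. Of 11 urothelium markers 3 were called higher, Krt14 (6.40 ± 1.02) and Krt5 (2.32 ± 0.79), keratins of basal cells, and Epcam (2.79 ± 0.68), and 1 lower, Upk1a (-2.53 ± 0.79), a uroplakin of superficial cells, with sums of 1375 to 2764 CPM in U and 29.6 to 7543 CPM in UN. Of 4 mesothelium markers tested, Msln alone was called higher (1.82 ± 0.72, adjusted p = 0.0931), and the median log2 fold change of these markers was -0.26. No measured macrophage, neutrophil, urothelium or mesothelium marker was at 0 in all libraries of a group, and their part in the result was not tested. With 1 library per mouse, where edgeR called 161 genes in place of 2106, most of these calls were lost. Of the 21 fibroblast genes 0 were then called higher and 1 lower (Spon1), with 11 at an unadjusted p under 0.05. Of the 17 response genes 3 were higher (Timp1, Ctgf and Cdkn1a), of the 13 inhibitors 0, with 5 at an unadjusted p under 0.05, of the macrophage markers 0, with 6 under it, of the neutrophil markers 1, and of the urothelium markers 1 (Krt14).

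UT was compared with UN to ask what distinguished the cancerous side from the opposite ureter. In the 11 UT libraries Inhba ran from 2.45 CPM (UT 6) over a median of 6.79 to 56.2 CPM (UT 2), with UT 10 at 35.8 and UT 4 at 17.2 CPM. UT 1 (8.14 CPM), UT 2, UT 4 and UT 10 stood above every UN library, while the other UT libraries lay in the UN range. The log2 fold change was 2.06 ± 0.62, or 4.17-fold (edgeR, adjusted p = 0.0465), and this made 1 of 10 members called higher and 0 lower, against 2.80% and 8.0% of 15621 genes. Since equal numbers mark the opposite sides of 1 animal, the difference was also fitted with the mouse as a block over 6 mice, where the Inhba difference was 1.37 with an adjusted p of 0.857. In that paired fit 0 of 14870 genes were called by edgeR, with 462 at an unadjusted p under 0.05. The call was also lost without libraries of RNA integrity number under 5 (2.10, adjusted p = 0.117), with UT and UN fitted alone (2.05, adjusted p = 0.125) and with the integrity number as a covariate (1.53, adjusted p = 0.618).

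Within the 6 mice, Inhba was higher in UT in 5, with a mean difference of 1.01 ± 1.42 (SD, n = 6) in log2(CPM + 4), from -0.33 in mouse 7 to 3.37 in mouse 2. Tnc was higher in 5 of 6 (1.18 ± 1.21), the exception being mouse 7, whose UN library had 149 CPM where the other UN libraries had 10.3 to 39.0 CPM. Lox was higher in 5 of 6 mice (0.65 ± 0.61). Thbs2 ran from -1.48 in mouse 1 to 4.08 in mouse 2, and Postn from -3.00 in mouse 4 to 1.26 in mouse 6, so neither had a direction shared by the mice. Adding mouse 9, whose UT library is the one left out of the fits, gave 6 of 7 mice for Inhba, Tnc and Lox alike.

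**Figure D2:**
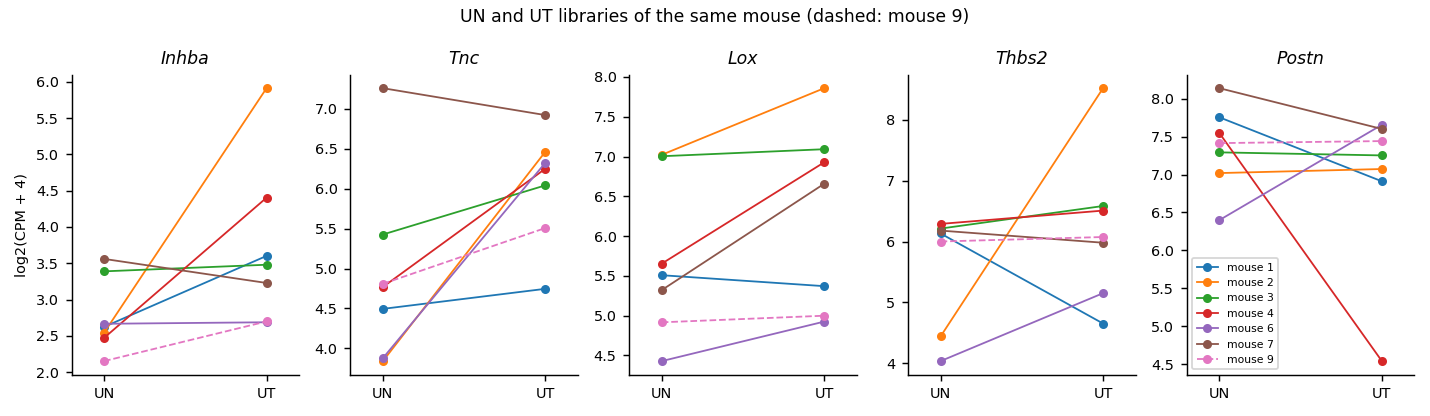
Levels in UN and UT of the same mouse as log2(CPM + 4), 1 line per mouse, for Inhba, Tnc, Lox, Thbs2 and Postn (dashed line for mouse 9). The Inhba difference is 3.37 in mouse 2 and -0.33 in mouse 7, and the Postn difference is -3.00 in mouse 4.

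In the fit over all libraries, Tnc (0.99 ± 0.46, adjusted p = 0.150) and Thbs2 (0.94 ± 0.45, adjusted p = 0.159) were close to 2-fold higher in UT without being called. Tnc was called without UN 7 (1.73, adjusted p = 0.0138), and Thbs2 without UT 1 (1.06, adjusted p = 0.0937) or UT 6 (1.12, adjusted p = 0.0927). Without UT 2 the Thbs2 difference was 0.48, and without UT 10 that of Tnc was 0.66. Postn went the other way, at -0.71 ± 0.30 (adjusted p = 0.119), with 19.3 to 198 CPM in UT and 80.4 to 278 CPM in UN. Fap was at -0.62 ± 0.47, Tgfb1 at 0.59 ± 0.38, Lox at 0.51 ± 0.44, Tgfb2 at 0.25 ± 0.24, Pdgfrb at 0.18 ± 0.30 and Tgfb3 at -0.01 ± 0.29, none of them called. No member separated UT from UN, as in nearly all genes, of which 0.0128% were higher in every UT library.

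Of 12 genes of TGF-beta latency and activation, 3 rose from UN to UT. They were Itgb6 (1.79 ± 0.53, adjusted p = 0.0447) and Itgav (1.03 ± 0.31, adjusted p = 0.0469), the subunits of the integrin that frees latent TGF-beta on epithelium, and Ltbp1 (1.38 ± 0.43, adjusted p = 0.0515), a latent TGF-beta binding protein that tethers the latent complex to the matrix. Among 21 other activated fibroblast genes, Lrrc15, a TGF-beta-induced marker of tumor fibroblasts, was called higher (2.71 ± 0.91, adjusted p = 0.0636) and Aspn, the proteoglycan asporin, lower (-1.32 ± 0.33, adjusted p = 0.0346). Of 17 response genes 2 fell, Acta2 (-1.27 ± 0.42) and Tagln (-1.04 ± 0.38), which smooth muscle also expresses. Smooth muscle markers fell with them, 8 of 10, with sums of 240 to 1461 CPM in UT and 228 to 5157 CPM in UN, and so did 3 of 7 adipocyte markers. Higd1b and Cspg4 of 8 pericyte markers, Cdh5 of 9 endothelium, Upk1a of 11 urothelium and Ckm of 4 skeletal muscle markers were called lower too. No macrophage or neutrophil marker was called. Of 4 mesothelium markers tested, Msln alone was called higher (3.27 ± 0.69), with a median of -0.34 for these markers. Of 5 kidney tubule markers 3 were called higher (median log2 fold change 4.56). Without UT 4, 0 of 4 kidney tubule markers tested were called higher and 2 lower, and Inhba was at 2.14 (adjusted p = 0.0518). None of these markers was at 0 throughout a group, and their part in the result was not tested. With the mouse as a block, edgeR called no gene at all, and with UT and UN fitted alone it called 2 genes in place of 1688. Without libraries of RNA integrity number under 5 it called none of the latency, response, activated fibroblast, smooth muscle, adipocyte, mesothelium or kidney tubule genes. Without those libraries, 3 of 12 latency and activation genes, 2 of 17 response genes and 9 of 10 smooth muscle markers had an unadjusted p under 0.05, and with the block 0 of 12, 3 of 17 and 1 of 10.

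Against untreated ureter, Inhba, Lox, Tnc and Tgfb1 rose in UT, 4 of 10, against 18.5% of genes called higher, and 0 members fell, against 14.4% called lower. The median log2 fold change of the members was 0.86, and that of all genes 0.08. This comparison shares the 6 U libraries with that of UN against U. Inhba rose by 4.99 ± 0.79 on the log2 scale, or 31.8-fold (edgeR, adjusted p = 5.81e-05), and every UT library, UT 9 included, lay above every U library, as for 15.0% of genes (4.39% were lower in every UT library). Its size depends on the few counts in U. The call held with 1 library per mouse (5.08, adjusted p = 0.00702).

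Lox rose by 1.63 ± 0.49 (3.09-fold, adjusted p = 0.00905). Its UT levels had a lowest 26.4 CPM (UT 6), a median 97.0 and a highest 228 CPM (UT 2), against 37.7, 32.8, 31.6, 21.3, 30.7 and 11.7 CPM in U, so that all but 3 of the UT libraries (UT 1, UT 6 and UT 9) lay above the U range. It was also called with 1 library per mouse (1.70, adjusted p = 0.0784).

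Tnc rose by 1.27 ± 0.49 (adjusted p = 0.0371), from 12.5 to 32.9 CPM in U to 22.8 to 244 CPM in UT (median 72.1), with UT 10 and UT 7 highest and UT 1 and UT 5L inside the U range. Tgfb1, which encodes the ligand most often linked to fibroblast activation, rose by 1.05 ± 0.40 (adjusted p = 0.0375), from 1.36 to 2.31 CPM in U to 2.79 to 8.40 CPM in UT, without overlap. Both calls were less stable than those of Inhba and Lox. Tgfb1 was lost without UT 2 (0.99), UT 10 (0.92) or U 4 (0.98), Tnc without UT 10 (0.91), all at an adjusted p under 0.1 and below 2-fold. Both were lost with the integrity number as a covariate (Tnc 0.76, adjusted p = 0.289, and Tgfb1 0.55, adjusted p = 0.361) and with 1 library per mouse (adjusted p = 0.147 and 0.174).

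Tgfb2 was higher by 0.96 ± 0.26 (adjusted p = 0.00417) and so passed the threshold on p below 2-fold. Postn was at -0.69 ± 0.31 (adjusted p = 0.0748), again below 2-fold. Thbs2 (0.77 ± 0.47), Tgfb3 (0.21 ± 0.31), Pdgfrb (-0.07 ± 0.31) and Fap (-0.50 ± 0.48) were not called.

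**Figure D3:**
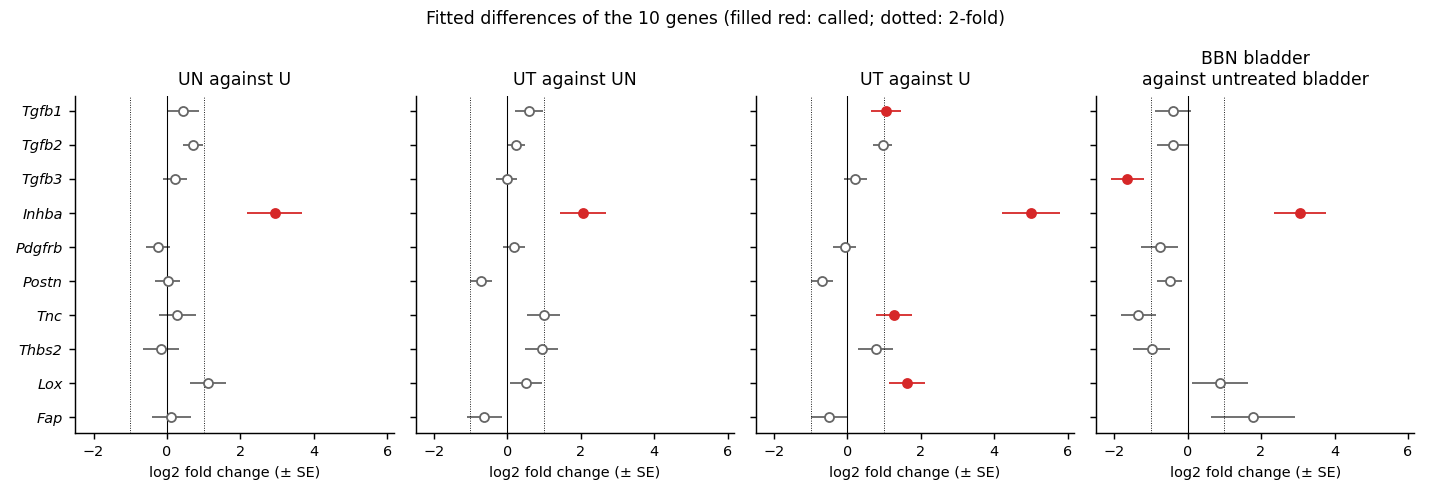
Fitted log2 fold change with its SE on the horizontal axis for each of the 10 genes in 4 comparisons, with filled red points for calls (adjusted p under 0.1 and at least 2-fold) and dotted lines at 2-fold. Inhba is called in all 4 panels (2.93, 2.06, 4.99 and 3.06), Tgfb3 is called lower in the bladder alone (-1.65), and Postn stays within 2-fold.

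Further members of the pathway were called between UT and U. Of 12 latency and activation genes 4 rose, including Itgb6 (2.82 ± 0.59, adjusted p = 0.000605) and Thbs1 (1.99 ± 0.40, adjusted p = 0.000476), the activator thrombospondin 1. Of 13 inhibitors 5 rose, among them the SMAD corepressor genes Skil (2.27 ± 0.30) and Tgif1 (2.32 ± 0.38), and Pmepa1 (2.15 ± 0.42), which TGF-beta itself induces. Of 17 response genes 10 rose and 1 fell, and of 21 other activated fibroblast genes 11 rose and 3 fell. Pdpn (2.37 ± 0.29) and Runx1 (2.33 ± 0.32) had the smallest adjusted p among those that rose, and Aspn (-2.02 ± 0.34) and Adam12 (-2.15 ± 0.38) among those that fell. Of 9 receptors none rose and 2 fell, Acvr1c (-2.86 ± 0.67), which fat expresses strongly, and Tgfbr3 (-1.25 ± 0.50). Of the PDGF ligands, Pdgfa rose (1.52 ± 0.31, adjusted p = 0.000476) and Pdgfd fell (-2.22 ± 0.47, adjusted p = 0.000601). With 1 library per mouse, 6 response genes were called higher and 1 lower, 6 of the other fibroblast genes higher and 3 lower, and of the receptors Acvr1c alone, so that the Tgfbr3 call was lost.

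Markers of other cells moved in the same comparison. All 7 adipocyte markers fell, with sums of 58.6 to 40522 CPM in UT against 47005 to 73903 CPM in U, and so did 9 of 10 smooth muscle markers (240 to 1461 against 1513 to 2728 CPM) and 5 of 8 pericyte markers (87.1 to 285 against 200.5 to 354 CPM). Of 12 resting fibroblast markers 3 fell and 1 rose (834 to 9653 against 7705 to 12124 CPM). Of 9 endothelium markers 3 fell (154 to 933 against 314 to 614 CPM), and of 11 urothelium markers 4 rose and 2 fell (996 to 10280 against 1375 to 2764 CPM). Macrophage markers rose in 6 of 10 (599.9 to 2072 against 372 to 545 CPM) and neutrophil markers in 6 of 7 (55.5 to 842 against 25.1 to 41.6 CPM). Of 4 mesothelium markers Msln rose (5.09 ± 0.82) and 2 fell. All 5 kidney tubule markers tested were called higher, with a median log2 fold change of 7.48, and without UT 4 the calls were 1 of 4 (median 0.74), while Inhba (5.03), Lox (1.65), Tnc (1.33) and Tgfb1 (1.10) were called without it as with it. With 1 library per mouse, 1 resting fibroblast marker was called lower (Gsn) and 0 higher, with 2 of 6 kidney tubule markers higher and 3 urothelium markers higher and 1 lower. None was at 0 in all libraries of a group, and their part in the changes of the members was not tested.

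The UT libraries differed more from each other than the U libraries did. UT 2 had the highest Inhba (56.2 CPM), Lox (228 CPM), Thbs2 (364 CPM) and Tgfb3 (55.5 CPM) of the UT group, and UT 10 the highest Tnc (244 CPM) and Tgfb1 (8.40 CPM) with the second highest Inhba, Lox and Thbs2. UT 4 had the highest Pdgfrb (75.3 CPM) and the lowest Postn (19.3 CPM) and Fap (0.318 CPM, 4 counts), and it is the library with the high kidney tubule sum. UT 6 was the reverse of UT 2 in part, with the lowest Inhba and Lox and the highest Postn (198 CPM). The ratio of the highest to the lowest UT library was 36.1 for Fap and 10.2 for Postn. The low adipocyte sum of 58.6 CPM belonged to UT 2.

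The bladder comparison tests the same exposure in the other organ. Inhba rose there too, from 0.627, 0.666 and 0.843 CPM in B to a lowest 0.895, a median 4.53 and a highest 12.9 CPM in BB, with BB 4 just above the B libraries and BB 2 highest. All 10 BB libraries lay above all 3 B libraries, as for 4.98% of genes. The log2 fold change was 3.06 ± 0.72, or 8.34-fold (edgeR over 9 BB and 3 B, adjusted p = 0.0167). Tgfb3, the ligand gene with the highest level per length, fell by 1.65 ± 0.45 (adjusted p = 0.0340), from 90.5, 37.8 and 43.1 CPM in B to 2.56 to 44.3 CPM (median 16.3) in BB, where BB 5 alone exceeded the lower B libraries. So 1 of 10 members was called higher and 1 lower, against 7.22% and 5.47% of 17997 genes. Without B 1, the bladder with the highest Tgfb3, the Tgfb3 call was lost (-1.18, adjusted p = 0.294), and the Inhba call was lost without B 1 (2.91, adjusted p = 0.107) or B 2 (2.94, adjusted p = 0.102).

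Without the 3 BB libraries of RNA integrity number under 5, Inhba was at 2.94 (adjusted p = 0.00179) and Tgfb3 at -1.35 (adjusted p = 0.0268), and Tnc was then called lower as well (-1.06, adjusted p = 0.0649), against 12.1% of genes called higher and 10.3% lower. With them, Tnc missed the threshold (-1.34 ± 0.48, adjusted p = 0.103). Tnc was at 127, 61.1 and 89.9 CPM in B and 4.58 to 79.1 CPM in BB (median 21.0), and BB 2 alone lay within the B range. In the BB libraries without low integrity, Tnc was at 17.7 to 79.1 CPM (median 43.25) and Tgfb3 at 10.45 to 44.3 CPM (median 18.3). Thbs2 (-0.98 ± 0.50), Pdgfrb (-0.76 ± 0.51), Postn (-0.49 ± 0.34), Tgfb1 (-0.41 ± 0.49), Tgfb2 (-0.41 ± 0.42), Lox (0.88 ± 0.77) and Fap (1.78 ± 1.14) were not called. The Fap difference was 0.41 without the low-integrity libraries, which held 3.45 to 5.62 CPM against 0.616 to 3.50 CPM in the other BB libraries. In B 3 Fap had 1 count.

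Of 17 TGF-beta response genes 5 fell and 1 rose in the bladder. Among those that fell were the fibronectin gene Fn1 (-1.86 ± 0.39, adjusted p = 0.00852) and the collagen I genes Col1a2 (-2.41 ± 0.52, adjusted p = 0.00975) and Col1a1 (-2.87 ± 0.69, adjusted p = 0.0181). Of 21 other activated fibroblast genes, Mmp13, a collagenase (2.97 ± 0.90), and Il11, a TGF-beta-induced cytokine (3.01 ± 0.94), were called higher and 3 lower. Resting fibroblast markers fell in 6 of 12, with sums of 655 to 3561 CPM in BB and 5372 to 6172 CPM in B, smooth muscle markers in 3 of 10 (553 to 5516 against 7073 to 8382 CPM) and urothelium markers in 5 of 11, with 1 called higher. Macrophage markers rose in 3 of 10 (332 to 985 CPM in BB and 428 to 458 CPM in B), among them Cd14 (2.24 ± 0.41), and neutrophil markers in 4 of 7 (20.5 to 253 against 15.2 to 18.7 CPM), among them S100a9 (6.76 ± 1.59). Without the 3 BB libraries of RNA integrity number under 5, 3 response genes were called higher and 6 lower, and of 20 other fibroblast genes 3 higher and 5 lower. Of 12 latency and activation genes 2 were then higher (Ltbp1 and Itgav) and 1 lower (Itgb5), where 0 were higher and 1 lower with them. Smooth muscle markers were lower in 7 of 10 (sums of 1690 to 5516 CPM in BB), and urothelium markers higher in 3 (Krt5, Krt14 and Epcam) and lower in 5. No marker was at 0 throughout a group, and their part in the result was not tested.

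Untreated ureter and bladder differed before any exposure. Fap was higher in U (2.93 to 6.76 CPM) than in B (1.74, 1.40 and 0.0602 CPM), by 2.47 ± 0.90 (adjusted p = 0.0721), and Postn by 1.21 ± 0.33 (adjusted p = 0.0152). Tgfb2 (-1.57 ± 0.42, adjusted p = 0.0130), Tgfb3 (-1.43 ± 0.45, adjusted p = 0.0343) and Thbs2 (-1.40 ± 0.50, adjusted p = 0.0662) were lower in ureter. These were 2 of 10 members called higher and 3 lower, against 7.04% and 8.74% of 18769 genes. With the mouse as a block, Lox was also called higher (1.75, adjusted p = 0.00619) and Tnc (-1.38, adjusted p = 0.0394) and Tgfb1 (-1.12, adjusted p = 0.0863) lower, against 9.89% and 9.78% of genes. In CPM, 1 member was higher and 6 were lower in every U than in every B library, against 13.5% and 39.5% of genes. The calls of Fap and Thbs2 were lost without any 1 of the 3 B libraries, and those of Tgfb2 and Tgfb3 without B 1 (-1.30, adjusted p = 0.117, and -0.94, adjusted p = 0.356). Marker lists differed between the organs as well. All 7 adipocyte markers (median log2 difference 6.51), 4 of 8 pericyte and 3 of 9 endothelium markers were called higher in ureter, and 7 of 11 urothelium (median -2.36) and 5 of 10 smooth muscle markers lower. Summed levels were 1375 to 2764 CPM in U and 18774 to 19596 CPM in B for urothelium, and 1513 to 2728 against 7073 to 8382 CPM for smooth muscle. Their part in the differences of the members was not tested.

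The effect of BBN in UN was set against that in the bladder by an interaction term. No member was called, 0 of 10 in either direction, against 1.65% of genes higher and 0.682% lower, while 3 members had an unadjusted p under 0.05. For Inhba the difference between the organs was -0.08 ± 0.94 (adjusted p = 0.985), an interval too wide to show that the organs responded alike. Tgfb3 was closest, at 1.89 ± 0.56 (adjusted p = 0.102). With the mouse as a block it was called (2.35, adjusted p = 0.00490, against 3.78% of genes called higher and 2.86% lower), as with DESeq2 (1.82, adjusted p = 0.0335), the only member that DESeq2 called, and without libraries of RNA integrity number under 5 (1.82, adjusted p = 0.0295).

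The balance of the 3 TGF-beta ligands could be read per length. Tgfb3 held a median 78.9% of the summed TPM of Tgfb1, Tgfb2 and Tgfb3 in U, 74.4% in UN, 67.0% in UT, 74.9% in B and 62.7% in BB. Tgfb2 held 15.4% in U, 17.3% in UN, 27.0% in UT, 19.3% in B and 27.6% in BB, and Tgfb1 5.65%, 5.80%, 8.18%, 5.76% and 7.67%. Tgfb3 was the largest share in most libraries, with a lowest value of 27.5% in BB, and the shares overlapped between groups. No test was made of the shares.

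**Figure D4:**
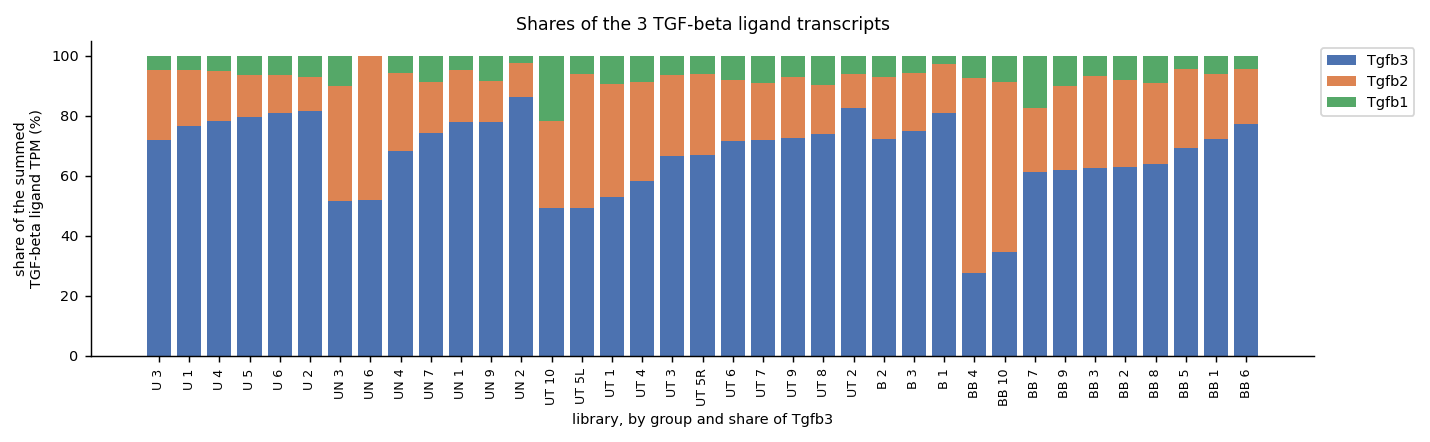
Stacked bars of the share of Tgfb3, Tgfb2 and Tgfb1 in the summed TPM of the 3 ligands in percent, 1 bar per library, ordered by group and by the share of Tgfb3. U libraries hold 72.1% to 81.5% Tgfb3 and UT libraries 49.3% to 82.8%.

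How the members varied together was described by Pearson's r in log2(CPM + 4) after the mean of each group had been removed, over 37 libraries. Both genes of a pair are read in the same library and so share its depth and RNA quality. The highest pair was Tnc and Tgfb1 (r = 0.81), followed by Tnc and Thbs2 (0.72) and Tgfb1 and Thbs2 (0.71). These genes were low together in the BB libraries of RNA integrity number under 5. Their mean CPM there was 0.885 for Tgfb1, 10.85 for Tnc and 23.5 for Thbs2, against 4.28, 41.25 and 95.4 in the other BB libraries. No r of a pair was computed without those libraries. Inhba went with Lox (0.57), Thbs2 (0.54) and Tnc (0.51) and not with Postn (-0.18) or Fap (-0.06). Fap was at or below 0.31 with every other member, and its lowest value was with Tgfb2 (-0.36). Postn had its highest value with Tgfb3 (0.55).

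**Figure D5:**
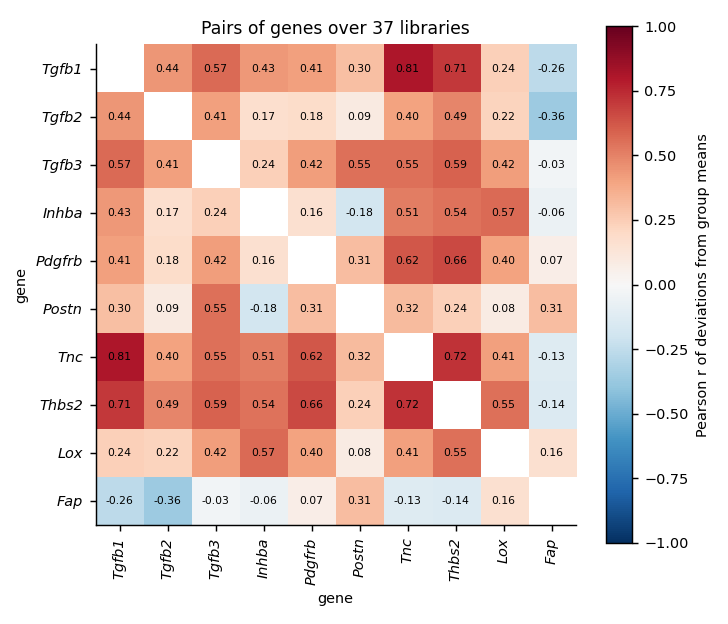
Pearson r between each pair of the 10 genes, on deviations from group means over 37 libraries, as a coloured matrix with the value in each cell. Tnc, Tgfb1 and Thbs2 form the reddest block (0.71 to 0.81), while the row of Fap is pale.

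By the same measure over 17436 genes, the genes most like the mean of the members were Fbln2 (r = 0.85), which encodes the matrix protein fibulin 2, Fkbp10, Fn1 and Col5a1 (0.84 each), Itga5, Emilin2 and Col1a1 (0.83), Thbs1 (0.82), and Osmr and Fndc3b (0.81). Only 2 of these 10 remained when the 24 ureter libraries were used alone. Pdgfrb was most like Col4a1 (0.90) and Col4a2 (0.88), the chains of basement membrane collagen. Inhba was most like Adm2 (0.86) and Slc16a3 (0.84), the latter a lactate transporter, Tgfb1 like Rangap1 and Sh3bp1 (0.93 each), and Postn like the chemokine Ccl11 (0.82) and the growth factor Fgf7 (0.81). For the others the highest was Limk1 with Tnc (0.85), Ptk2 with Thbs2 (0.86), Fkbp10 with Tgfb3 (0.82), Slc7a6 with Tgfb2 (0.84), Ccl24 with Fap (0.75) and Col5a2 with Lox (0.70).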

How the data were processed

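WTS libraries of 37 mouse ureter and bladder samples were prepared with the SMARTerHT and Nextera XT kits, which do not mark strand. The authors mapped the reads to GRCm38/mm10. The deposited table holds raw estimated counts for each gene symbol, and 21.1% of the nonzero values are fractional. The submitters' processing notes name TopHat2 2.1.1 and Cuffdiff 2.2.1, and the counting program is not given in the sources used here. The counts were rounded here, and the quasi-likelihood test of edgeR 4.0.16 (R 4.3.3) was run with TMM and filterByExpr, with calls at an adjusted p (Benjamini-Hochberg) under 0.1 and at least 2-fold, the thresholds of the study.

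Ureters were fitted together (10 UT, 7 UN, 6 U), bladders separately (9 BB, 3 B), and the interaction over 7 UN, 6 U, 9 BB and 3 B. In these fits a gene had a dispersion (spread between libraries beyond counting error) shared by all groups fitted. Estimated by group, the common dispersion was 0.19 in UT, 0.278 in UN, 0.0348 in U, 0.358 in BB and 0.0211 in B. The U libraries, of low dispersion, thus entered the spread used for UT against UN. With UT and UN alone, 2 genes were called in place of 1688. The SE was the log2 fold change divided by the root of F. CPM used plain library totals, and TPM used annotated exon lengths, which cover at least 78.2% of the counts of each library. No library was a copy of another within its group (lowest chi-square per degree of freedom 7.36), and p-values measure only the spread between these samples.

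Equal numbers of UT, UN and BB mark 1 animal, and the labels pair U 1 and U 2 with B 1, U 3 and U 4 with B 2, and U 5 and U 6 with B 3. Deviations from the group means of such UT and UN pairs correlated with a median r of -0.0118 (n = 6), and those of different mice with -0.0125 (n = 64). The mouse was fitted as a block as an alternative.

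On counts simulated from these libraries, 94.0% of 200 genes changed 4-fold were called between UT and UN, 88.0% between UN and U, 90.5% between UT and U, and 36.0% in the bladders (89.0% without those of RNA integrity number under 5). These shares describe the simulated counts. Whether they hold under the unequal group dispersions given above, or for U libraries that share a mouse, was not tested. Recovery was not computed for UT and UN alone or with the mouse as a block, where 2 and 0 genes were called.

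The members and gene lists were chosen with earlier results of these data known. Named genes were the members, up to 4 genes of each list with the smallest adjusted p among those called (otherwise the smallest), and the genes most like the members in r (the top 10 for their mean and the top 2 for each). Alternatives were RLE scaling, another filter on low counts, DESeq2 1.42.0, limma 3.58.1 (voom), other sample sets, the integrity number as a covariate, 1 library per mouse, and leaving out each library (only those of B in the comparisons between organs). Leaving out ureter libraries of low integrity number was chosen after seeing the data. Totals of 3557697 to 18793560 counts set the precision, and floors cover counting error only. Figures were drawn with matplotlib 3.10.9 in Python 3.11.15.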

Additional observations from a re-analysis of the deposited data

Results flagged for a closer look

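Of 40 sets of libraries examined, a member in a group of 4 to 10 libraries, 2 held a library far from the others, and chance gives about 1 in 20. Tnc in U 6 was at 4.04 in log2(CPM + 4), or 12.5 CPM, where the nearest other U library was at 4.88, or 25.5 CPM. U 6 also had the lowest Postn, Pdgfrb, Thbs2, Lox, Tgfb2 and Tgfb3 of the U libraries, whereas Fap, Tgfb1 and Inhba were lowest in other libraries. Its adipocyte sum was the highest of U (73903 CPM), and its resting fibroblast (7705 CPM), pericyte and endothelium sums were the lowest. Tgfb2 in UT 5L, the left of the pair of UT libraries from mouse 5, was at 4.87, or 25.2 CPM, where the nearest other UT library was at 4.35, or 16.4 CPM.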

How the results depend on the processing

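In UT against UN, where 1688 genes were called, 2625 were called with at least 10 counts in total in place of filterByExpr, 874 with all 11 UT libraries, 1 with voom, 0 with the integrity number as a covariate, 4 with 1 library per mouse, 2 with UT and UN alone, 5 without libraries of low integrity number and 0 with the replicate block. Of the members, 2 were called higher with DESeq2 (Inhba and Tnc), which called 2044 genes. None was called with voom, the covariate, 1 library per mouse, UT and UN alone, the low-integrity libraries left out, or the paired fit. In UN against U, 161 genes and 0 members were called with 1 library per mouse, in place of 2106 and 1, and DESeq2 called 2426 genes and 2 members. In UT against U, 4184 genes and 2 members were called with 1 library per mouse, in place of 5147 and 4. In the bladder comparison, with 2283 genes called, DESeq2 called 5609, voom 4897, the fit with 10 BBN bladders 2410 and the fit without low-integrity libraries 3483. There 2 members were called lower with DESeq2, with 10 BBN bladders and without low-integrity libraries, and 4 with voom. In untreated ureter against bladder, with 2962 genes called, DESeq2 called 3455, voom 5455, the replicate block 3599 and the fit without low-integrity libraries 4245. Under each of these, 5 members were lower. In the interaction, with 437 genes called, DESeq2 called 999, voom 1659, the block 1215 and the fit without low-integrity libraries 1184, and 1 member was called (Tgfb3) under each of these and under RLE (448 genes). The causes were not tested.

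Differences near 0 changed sign. In UT against UN, Tgfb3 was at 0.03 with the other filter, 0.04 with 1 library per mouse and 0.11 in the paired fit, and Pdgfrb at -0.10 with the covariate. In UN against U, Fap was at -0.26 with voom, -0.04 with the covariate and -0.17 without low-integrity libraries, and Postn at -0.00 with the other filter and -0.01 with the covariate. Pdgfrb in UT against U was at 0.05 with all 11 UT libraries, and Inhba in the interaction at 0.07 without low-integrity libraries. The log2 ratio of mean CPM, on plain library totals, differs from the fits in scaling and in estimator. Its median over all genes was 0.22 in UT against UN, 0.18 in UN against U, 0.41 in UT against U and -0.32 in U against B. Its sign was opposite to that of the fit for Tgfb3 in UT against UN and for Pdgfrb in UT against U and U against B. TMM-scaled CPM moved the means in B to 4.49 for Tgfb1 and 32.3 for Pdgfrb, and 2 of the 10 genes most like the members were shared with the ureter libraries alone.

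With single libraries left out, genes called ranged from 1533 to 2726 in UN against U and from 4937 to 5262 in UT against U. They ranged from 548 (without UN 6) to 2535 (without UN 3) in UT against UN, 1001 (without B 1) to 2606 in the bladder, 1869 to 2083 in untreated ureter against bladder and 156 to 217 in the interaction. In these last 2 comparisons the B libraries alone were left out in turn, and leaving out single U, UN or BB libraries was not run. Members called higher ranged from 1 to 2 in UT against UN and in UN against U, from 2 to 5 in UT against U, from 0 to 1 in the bladder, and were 1 in place of 2 in untreated ureter against bladder without any 1 of the B libraries. Members called lower ranged from 0 to 2 in the bladder and from 0 to 2 in untreated ureter against bladder. The values that changed sign ranged from -0.25 to 0.19 for Tgfb3 in UT against UN, from -0.16 to 0.25 for Fap, -0.08 to 0.12 for Postn and -0.43 to 0.42 for Tnc in UN against U, from -0.22 to 0.09 for Pdgfrb and -0.04 to 0.30 for Tgfb3 in UT against U, and from -0.22 to 0.02 for Inhba and -0.17 to 0.57 for Lox in the interaction. The replicate block changed no other call of a member than those given above and in the results. U comes from 3 mice and B from 3, which limits both, and Inhba in U rests on 36 counts.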
